A study of Mus musculus with 38 samples.

Results

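Plasma cells sorted directly from mice were compared with plasmablasts made in culture. The comparison rests on 4 RNA sequencing libraries of the 38 samples in the series, 2 of each cell type, chosen by their labels alone. The plasma cells came ex vivo from C57BL/6 mice of genotype Blimp1(GFP/+) and were sorted as CD28+ CD138+ GFP+ cells negative for lineage markers. The plasmablasts came from B cells of Blimp1(GFP/+) Cd23(Cre/+) mice on the same strain, cultured over 4 days with LPS, the lipopolysaccharide of bacterial envelopes and a B cell stimulus, and were sorted as CD138+ GFP+. All these cells carry 1 Blimp1 allele with a GFP reporter, so GFP marks cells that transcribe the gene. Cre under the Cd23 gene is a B cell driver, and the plasmablasts carry it with no floxed allele in their genotype. Pre-plasmablasts, CD138- GFP+ cells from LPS cultures of the same length, link the cell types: 2 libraries of Blimp1(GFP/+) cells treated with the solvent DMSO, and 2 control libraries of Blimp1(GFP/+) Cd23(Cre/+) cells. The sources used here give neither the age of the mice nor the organ of the plasma cells. Nor do they say whether the libraries of 1 group stem from different animals, so p-values measure the spread between these libraries, which may be technical.

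Plasma cells are the end state of the B lineage and live by secreting antibody. Plasmablasts already secrete but still divide, while plasma cells have left the cell cycle and can persist for long in niches of the bone marrow, gut or spleen, held there by chemokine receptors, integrins and survival receptors. Blimp1, encoded by Prdm1, represses B cell and proliferation genes in both, and XBP1 and IRF4 support the secretory state.

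Values are RPKM (read counts scaled by transcript length and library size), as deposited by the authors. The direct difference is the mean log2(RPKM + 1) of plasma cells minus that of plasmablasts, after each library was centred on its median gene, and is given ± its standard error (2 libraries a group). Plasma cell and DMSO pre-plasmablast values are plain RPKM, while plasmablast and control pre-plasmablast values are GC-normalized. File type, origin, gate and the Cre allele therefore differ together in the direct difference and cannot be told apart, and it carries no test. The tested quantity is a bridged difference: plasma cells minus DMSO pre-plasmablasts, less plasmablasts minus control pre-plasmablasts, each within 1 file type. A gene was called when limma's adjusted p for the bridged difference was below 0.05 and the direct difference had the same sign, with no overlap between the 2 plasma cell and 2 plasmablast libraries. The libraries of a called gene therefore all lie on 1 side of the other group's. Where 2 pairs of values are set against each other, plasma cells come first.

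The pre-plasmablasts that link the file types were far apart. Solvent and Cre allele differ between them together with file type and cannot be told apart from it. Among plain RPKM libraries, summed RPKM was 603365 and 611197 under DMSO against 427358 and 423791 in plasma cells. The link difference is the mean log2(RPKM + 1) of DMSO minus that of control pre-plasmablasts. Across the 10323 genes tested it had a standard deviation of 0.98 log2, as wide as the direct difference (0.96), against 0.29 for plasmablasts minus control pre-plasmablasts. Genes of longer genomic span were lower in the DMSO libraries (Spearman rho of -0.34 between span and the link difference over 10018 genes), and span was nearly unrelated to the direct difference (rho 0.057). The bridged difference, from which calls and p-values come, had a rho of 0.287 with span, so the calls are not free of this relation. These are correlations across genes, which are not independent replicates. Sizes are therefore read from the direct difference, and the link difference is given for a gene where it exceeds 1 log2. Libraries of a group agreed closely, with Pearson's r across genes of 0.996 in plasma cells and 0.986 in plasmablasts, against 0.86 to 0.87 between the cell types.

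Plasma cells differed widely from plasmablasts. The call took in 2044 genes as higher in plasma cells (19.8%) and 2741 as lower (26.6%), so that 42.7% of calls were higher. Without centring that share became 57.1%, since centring moved the median bridged difference of all genes from 0.22 to -0.20 log2, while the median direct difference stayed at -0.05 and -0.04. With the added condition of a direct difference of at least 2-fold, chosen after the values were seen, 737 genes were higher (7.14%) and 946 were lower (9.16%). The counts of called genes for each gene list below are to be read beside these shares of all genes tested. The direct difference alone, with no overlap and 2-fold or more, gave 907 higher (8.79%) and 1166 lower (11.3%) genes. In bulk libraries fewer cells of a type and less RNA per cell cannot be told apart. A link difference under 1 log2 in size was found for 601 of the 737 higher and 629 of the 946 lower genes (81.5% and 66.5%), against 70.6% of all genes tested.

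**Figure D1:**
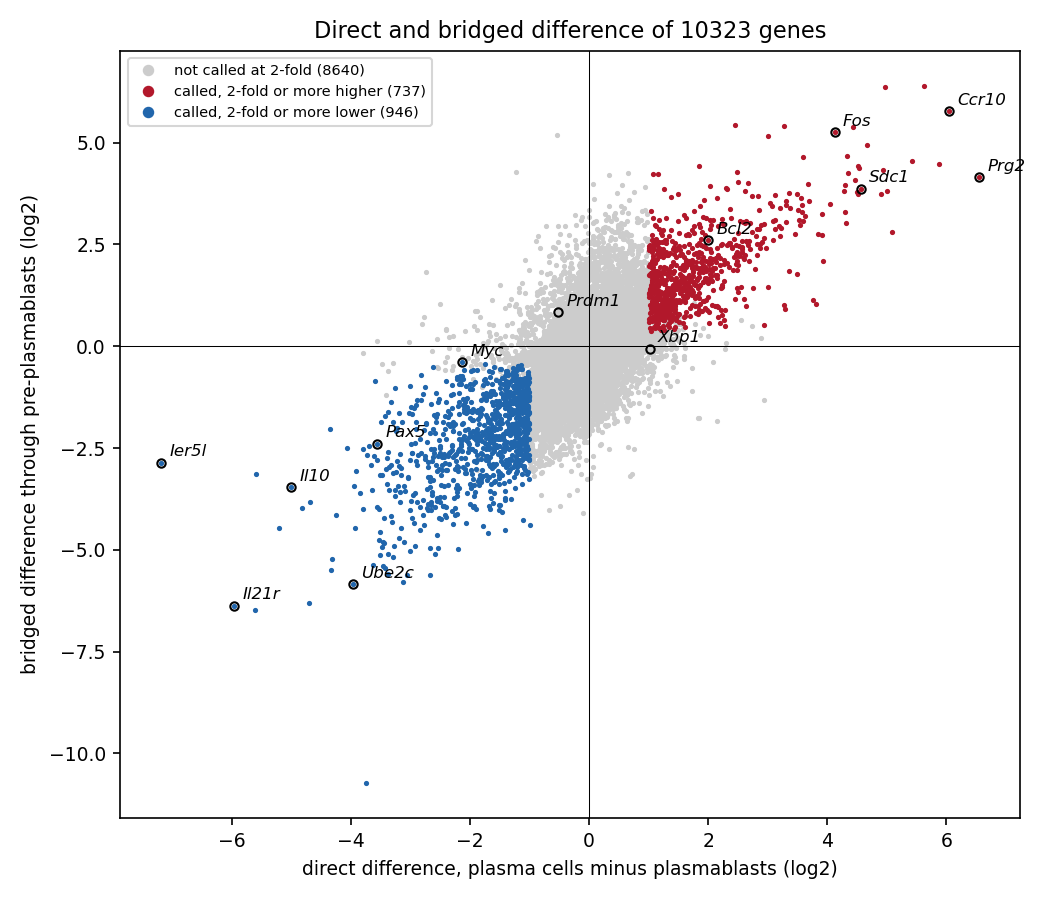
Each point is 1 of the 10323 genes tested, with the direct difference on the horizontal axis and the bridged difference on the vertical axis, both in log2. Red points are the 737 genes called and 2-fold or more higher in plasma cells and blue points the 946 called and 2-fold or more lower. Ccr10 and Prg2 lie far to the upper right, Il21r and Ier5l far to the left, and Xbp1 has a direct difference near 1 with a bridged difference near 0.

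Of the genes behind the sort gates, Sdc1 and Cd28 were called higher in plasma cells and Prdm1 was not called. Sdc1, which encodes CD138, stood at 779.7 and 753 RPKM in plasma cells and 32.7 and 30.4 RPKM in plasmablasts, so no library of one group came near the other. Its direct difference was 4.57 ± 0.07 log2, and its bridged difference was 3.87 ± 0.15 (limma adjusted p = 2.85e-06). Both populations were sorted as CD138+ GFP+ cells, in separate sorts. Cd28, the costimulatory receptor by which only the plasma cells were gated, measured 57.2 and 55.4 RPKM in plasma cells and 18.5 and 16.7 RPKM in plasmablasts, a direct difference of 1.63 ± 0.09 with a link difference of -1.52. That gate favoured a higher Cd28 in plasma cells in advance. Prdm1 measured 222 and 225 RPKM in plasma cells and 363 and 289 RPKM in plasmablasts. Its direct difference was -0.52 ± 0.18 and its bridged difference 0.83 ± 0.23 (limma adjusted p = 0.012), of opposite sign. DMSO pre-plasmablasts held 108 and 106 RPKM against 429 and 327 in control pre-plasmablasts, a link difference of -1.36, and Prdm1 was not called.

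Of the 26 tested genes on a list of plasma cell surface and survival genes, 8 were called 2-fold or more higher and 5 lower, with a median direct difference of 0.14 log2 against -0.04 over all genes. Tnfrsf17, which encodes the survival receptor BCMA, measured 369 and 331 RPKM in plasma cells and 10.4 and 10.6 RPKM in plasmablasts, and both plasma cell libraries stood far above. The direct difference was 4.94 ± 0.08 and the bridged difference 4.32 ± 0.20 (limma adjusted p = 4.35e-06). Tnfrsf17 was also higher in plasmablasts than in control pre-plasmablasts, by 2.50 log2 (limma adjusted p = 0.000594). Sdc1 was higher there by 3.42 log2, but it encodes CD138, by which these 2 groups were sorted apart. The gate therefore favoured that outcome in advance. Among genes chosen after their values were seen, the anti-apoptotic Bcl2 measured 30.2 and 31.7 against 6.40 and 7.81 RPKM (direct 1.99 ± 0.12), the interleukin-6 receptor gene Il6ra 21.9 and 20.9 against 7.39 and 8.79 RPKM (direct 1.31 ± 0.10) and Slamf7, a surface receptor of plasma cells, 153 and 151 against 43.4 and 59.95 RPKM (direct 1.57 ± 0.21), each plasma cells against plasmablasts. All of these were called higher. The other anti-apoptotic gene Bcl2l1, which encodes BCL-XL, went the other way, at 15.5 and 19.2 RPKM in plasma cells and 117.3 and 111 RPKM in plasmablasts (direct -2.65 ± 0.15, bridged -2.82 ± 0.16). Bcl2l11, Bax and Bak1, which promote apoptosis, were also called lower, Bak1 by less than 2-fold. Cd38, an ectoenzyme of the B cell surface, stood at 4.16 and 3.54 against 32.2 and 31.6 RPKM and was called lower. Cd93, a receptor linked to plasma cell maintenance, measured 53.9 and 54.0 against 23.9 and 28.0 RPKM, a direct difference of 1.04 ± 0.09, and missed the call (limma adjusted p = 0.067). With a pseudocount of 4 its limma adjusted p was 0.0416, with the 5 RPKM filter 0.0253 and without centring 0.00348. Under median-of-ratios scaling it was 0.0163 and under quantile normalization 0.00199. With a pseudocount of 0.25 it was 0.0782 and without a filter 0.0929, so Cd93 missed there too. It passed without the first DMSO library (0.0436), the second plasmablast library (0.0471) or the first control library (0.0478), each a limma adjusted p.

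**Figure D2:**
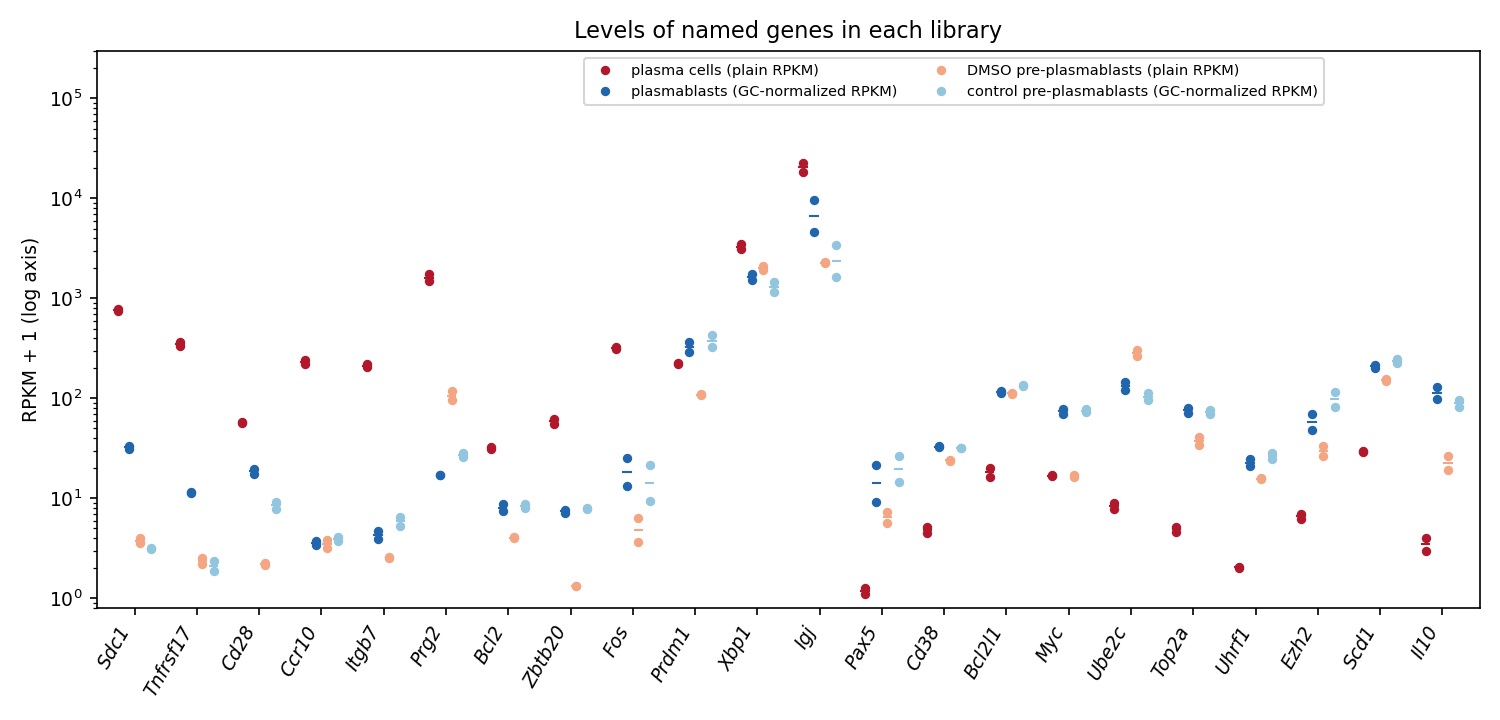
RPKM + 1 on a log axis for 22 genes, with each point a library and each short line the geometric mean of 2 libraries. Plasma cells (red) stand apart from plasmablasts (blue) for Sdc1 to Fos on the high side and for Pax5 to Il10 on the low side, and pre-plasmablasts of the 2 file types (orange and light blue) differ between themselves for genes such as Prdm1, Zbtb20 and Myc.

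Genes of homing and adhesion were split. Among 25 tested members, 8 were called 2-fold or more higher and 5 lower, and the median direct difference was 0.08. Ccr10, the receptor for the mucosal and skin chemokines CCL27 and CCL28, measured 243 and 222 RPKM in plasma cells and 2.72 and 2.41 RPKM in plasmablasts, with pre-plasmablasts of both kinds near the plasmablasts at 2.80 and 2.20 RPKM under DMSO and 3.12 and 2.73 in controls. Its direct difference of 6.04 ± 0.10 and bridged difference of 5.78 ± 0.19 (limma adjusted p = 1.83e-06) were close to each other. Itgb7, the integrin beta 7 chain that pairs with alpha 4 for entry into the gut, measured 218 and 206 RPKM in plasma cells and 2.93 and 3.75 RPKM in plasmablasts (direct 5.63 ± 0.13, bridged 6.40 ± 0.19). Cxcr3, an inflammatory chemokine receptor, stood at 27.4 and 36.3 against 0.535 and 0.364 RPKM and was called higher. On the low side, the follicle-homing receptor gene Cxcr5 stood at 0.239 and 0.226 against 11.2 and 14.01 RPKM (direct -3.45 ± 0.13, link 1.39), and Ccr6, Ccr7, Gpr183, S1pr1 and, by less than 2-fold, S1pr4 were called lower too. Cxcr4, the receptor for the bone marrow chemokine CXCL12, measured 139 and 154 RPKM in plasma cells and 242 and 153 RPKM in plasmablasts. Its libraries overlapped, and its direct difference of -0.39 ± 0.35 was not called (limma adjusted p = 0.148). Without the second plasmablast library it was called lower (bridged -0.955, limma adjusted p = 0.0152). Klf2, a transcription factor that controls trafficking receptors, measured 60.7 and 44.2 RPKM in plasma cells and 8.11 and 22.9 RPKM in plasmablasts and was called higher (direct 1.85 ± 0.72, limma adjusted p = 0.020). The call was lost without the first plasma cell library (limma adjusted p = 0.0734) or without the first or second DMSO library (0.0576 and 0.0617), and the bridged difference was 0.67 with GSK343-treated pre-plasmablasts as the link.

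The highest direct differences among named genes included several secreted or membrane proteins. Prg2, which encodes the granule protein of eosinophils known as major basic protein, measured 1744 and 1481 RPKM in plasma cells and 16.1 and 16.3 RPKM in plasmablasts and 116.8 and 95.1 RPKM in DMSO pre-plasmablasts. Its direct difference was 6.55 ± 0.12, of which the link difference made 2.40, and its bridged difference was 4.15 ± 0.19 (limma adjusted p = 4.16e-06). Reln, the gene of the extracellular matrix protein reelin, stood at 80.2 and 76.0 against 0.303 and 0.393 RPKM (direct 5.88 ± 0.05, link 1.403). Trf, which encodes transferrin, the iron carrier of plasma, stood at 76.8 and 63.0 against 0.700 and 0.599 RPKM (direct 5.43 ± 0.16). The sulfotransferase gene Chst1 stood at 283 and 309.6 against 8.61 and 8.47 RPKM (direct 4.97 ± 0.07, link -1.400). All 4 genes were called, with no plasma cell library near a plasmablast library. Kcnmb4, an accessory subunit of calcium-activated potassium channels, stood at 95.2 and 85.1 against 1.82 and 2.32 RPKM (direct 4.90 ± 0.13, link 1.16). Slpi, a secreted protease inhibitor chosen after its values were seen, stood at 8942 and 12408 against 1906 and 1857 RPKM (direct 2.49 ± 0.24, link -1.53).

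Genes of other blood cells were also among the highest. The haemoglobin gene Hbb-b1 measured 48.8 and 27.2 RPKM in plasma cells and 0.124 and 0.0926 RPKM in plasmablasts (direct 5.09 ± 0.42, link 2.29), and it has a near-identical copy whose reads cannot be kept apart. Pglyrp1, a granule protein of neutrophils, measured 66.5 and 51.2 RPKM in plasma cells and 0.973 and 0.771 RPKM in plasmablasts (direct 5.00 ± 0.21, link 1.18). Prf1, which encodes perforin of cytotoxic cells, measured 43.3 and 28.3 RPKM in plasma cells and 0.438 and 0.427 RPKM in plasmablasts (direct 4.66 ± 0.30). Without the first plasma cell library, their bridged differences were 2.39, 3.63 and 4.63, and all 3 were still called. Many markers are listed only in the plain RPKM files, so plasma cells could be set beside DMSO pre-plasmablasts there. Of 22 myeloid and granulocyte markers, 19 were above both DMSO libraries in both plasma cell libraries. Their summed level was 253.3 RPKM in the first plasma cell library and 149 in the second, against 21.0 to 21.1 in the DMSO libraries. S100a9, a neutrophil protein, measured 46.1 and 14.9 RPKM, and Ngp, of neutrophil granules, measured 38.7 and 9.49 RPKM, so the first library held the more of both. Lyz1 was listed at 0. Of 14 T cell markers, 10 were above the DMSO libraries, with sums of 49.2 and 37.8 against 4.06 to 5.06 RPKM. Cd4 measured 12.8 and 8.87 RPKM, but Cd3e, part of the T cell receptor complex, only 0.197 and 0.123, and Trat1 was listed at 0. Tcf7, a T lineage factor, measured 17.6 and 12.2 RPKM in plasma cells and 0.193 and 0.236 RPKM in plasmablasts (direct 3.70 ± 0.25, called). Of 17 natural killer and dendritic markers, 5 were above, and their sums were 434 and 426 against 498 to 504 RPKM. Ncr1, Gzmb and Batf3 were listed at 0, although Gzma measured 7.01 and 8.04 RPKM. Of 13 erythroid and megakaryocyte markers 10 were above, with sums of 67.3 and 37.2 against 12.4 to 16.0 RPKM. Of 14 stromal and endothelial markers 7 were above, with sums of 31.9 and 27.1 against 11.2 to 11.4 RPKM, most of it Pecam1, and Col3a1 was listed at 0. Of 13 mast cell and basophil markers 5 were above, with sums of 1754 and 1488 against 103 and 124 RPKM, nearly all of it Prg2. Cpa3, Fcer1a, Cma1, Mcpt4 and Tpsb2 were listed at 0 and the eosinophil peroxidase gene Epx measured 1.11 and 0.153 RPKM. No share of all genes by the same rule stands beside these counts. In either direction, 8000 genes passed the limma test of plasma cells against DMSO pre-plasmablasts. The counts of markers above the DMSO libraries therefore do not by themselves show an excess over other genes. Many markers counted as above lay near 0. At least 1 RPKM in both plasma cell libraries was reached by 11 of the 22 myeloid and granulocyte and 4 of the 14 T cell markers. It was reached by 6 of 17 natural killer and dendritic, 5 of 13 erythroid and megakaryocyte, 2 of 14 stromal and endothelial and 3 of 13 mast cell and basophil markers. The part of these markers in the differences was not tested. Without the first plasma cell library, 697 genes were called 2-fold or more higher and 903 lower.

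**Figure D3:**
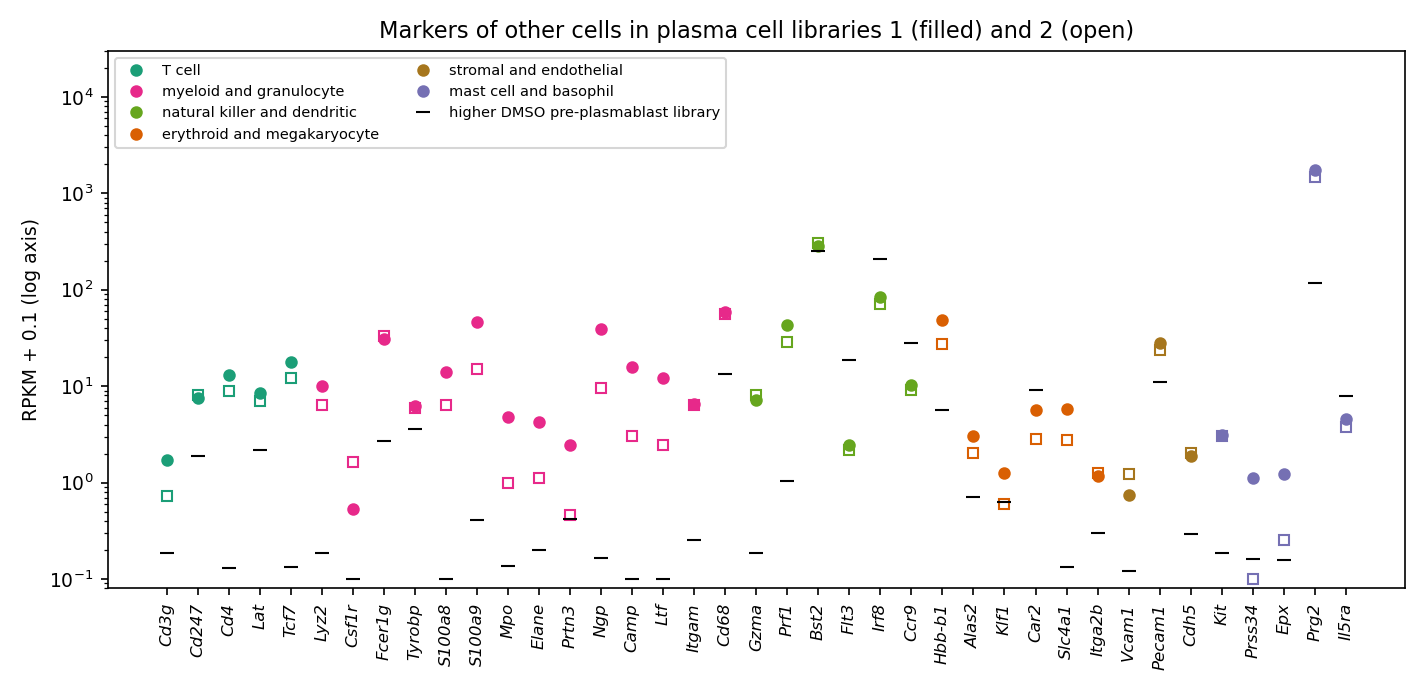
RPKM + 0.1 on a log axis for markers of other cells at 1 RPKM or more in at least 1 plasma cell library, coloured by list, with plasma cell library 1 as filled circles, library 2 as open squares and the higher of the 2 DMSO pre-plasmablast libraries as black dashes. Neutrophil genes such as S100a9 and Ngp lie higher in library 1 than in library 2, and the Prg2 level is alike in both.

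Regulators of the plasma cell state were mixed. Of 15 tested, 4 were called 2-fold or more higher and 1 lower, with a median direct difference of -0.01 log2 and a median link difference of -0.71. Zbtb20, a repressor linked to plasma cell survival, measured 54.9 and 61.3 RPKM in plasma cells and 6.16 and 6.63 RPKM in plasmablasts (direct 3.01 ± 0.08, link -2.15). Cbfa2t3, which encodes a corepressor of the ETO family, stood at 38.8 and 43.3 against 5.27 and 6.56 RPKM (direct 2.62 ± 0.14, link -1.198), and Creb3l2, an ER-bound transcription factor, at 196 and 217 against 50.7 and 58.2 RPKM (direct 1.92 ± 0.11). All 3 were called higher. Bhlha15, which encodes MIST1, a scaling factor of secretory cells, measured 258 and 266 RPKM in plasma cells and 128 and 129 RPKM in plasmablasts. The direct difference was 1.03 ± 0.02, and the call was narrow (bridged 0.37 ± 0.14, limma adjusted p = 0.045). It was lost without either plasma cell library, either plasmablast library, the second DMSO library or the second control library. A pseudocount of 0.25 (limma adjusted p = 0.0596), no filter (0.0651) and all 14 libraries in the fit (0.308) lost it too. Xbp1, whose product drives the secretory arm of the ER stress response, measured 3097 and 3469.6 RPKM in plasma cells and 1511 and 1756 RPKM in plasmablasts, with no overlap and a direct difference of 1.02 ± 0.12. Its link difference was 1.07 and its bridged difference -0.06 ± 0.21 (limma adjusted p = 0.820), or 0.37 without centring, so it was not called. Irf4 measured 319.6 and 319.6 RPKM in plasma cells and 412 and 351 RPKM in plasmablasts and was not called (direct -0.24 ± 0.13, limma adjusted p = 0.647). Ell2, an elongation factor that favours the secreted form of antibody transcripts, measured 226 and 218 RPKM in plasma cells and 232 and 268 RPKM in plasmablasts. It was not called, its direct difference of -0.16 ± 0.09 and bridged difference of 0.55 ± 0.18 having opposite signs. Pou2af1, a B cell coactivator, stood at 815 and 744 against 1743 and 1616 RPKM and was called lower (direct -1.10 ± 0.10), although its bridged difference turned from -0.85 to 0.61 under quantile normalization.

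By the direct difference the secretory machinery showed no common shift upward. Its medians were 0.41 log2 for partners of the antibody chains, -0.24 for the unfolded protein response, -0.24 for translocation and -0.03 for N-glycosylation. The median link differences of these lists, in that order, were 0.58, 0.44, 0.83 and 0.93, against 0.18 over all genes. Median bridged differences depended on the setting, from -0.635 to 0.861 for antibody partners and from -0.771 to 0.41 for the unfolded protein response. Among 9 partners of the antibody chains, 3 were called 2-fold or more higher and 1 lower, or 0 and 2 lower without the first and the second plasmablast library. Igj, the J chain gene, was the most abundant of the named genes in plasma cells, at 22670.0 and 18481 RPKM in plasma cells and 4576 and 9566 RPKM in plasmablasts. Its direct difference was 1.64 ± 0.54 with no overlap, but the plasmablast libraries stood far apart, and the bridged difference of 1.25 ± 0.57 was not called (limma adjusted p = 0.088). Without the second plasmablast library or the first control library it would have been called (limma adjusted p = 0.0156 and 0.0118). Txndc5, a disulfide isomerase of the ER, measured 5246 and 4632 against 2362 and 2211 RPKM (direct 1.12 ± 0.11) and Derl3, of ER-associated degradation, 1502 and 1563 against 684 and 665 RPKM (direct 1.19 ± 0.04), both called higher. The Txndc5 call (limma adjusted p = 0.034) was lost without the first plasma cell library, the second DMSO library, the second plasmablast library or either control library. It was also lost without a filter (limma adjusted p = 0.0703) and with all 14 libraries in the fit (0.14). The entry 2010001M09Rik, now Mzb1, a chaperone partner of antibody assembly, measured 3267 and 3215 RPKM in plasma cells and 8499.5 and 5694 RPKM in plasmablasts and was called lower (direct -1.09 ± 0.31, link 1.86). Antibody heavy and light chain genes were not analysed here.

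Of 35 genes of the unfolded protein response and ER chaperones, 2 were called 2-fold or more higher and 4 lower, with a median direct difference of -0.24. Without the fold condition 4 were higher and 15 lower, the latter holding the chaperone genes Calr, Canx, P4hb, Pdia3, Pdia4 and Pdia6. Ern1, which encodes the stress sensor IRE1, measured 88.3 and 82.7 RPKM in plasma cells and 33.2 and 36.3 RPKM in plasmablasts (direct 1.28 ± 0.07, link -1.33). The oxidases Ero1l, at 9.51 and 9.56 against 40.1 and 28.1 RPKM, and Ero1lb, at 42.4 and 50.1 against 136 and 159.8 RPKM, were called lower, and so was the stress gene Trib3, at 6.83 and 4.63 against 38.7 and 33.5 RPKM (direct -2.47 ± 0.27). Herpud1, an ER stress gene of degradation, measured 1184 and 1149.8 RPKM in plasma cells and 445 and 407 RPKM in plasmablasts, a direct difference of 1.46 ± 0.08, but its link difference was 1.86 and it was not called. Edem2, of glycoprotein degradation, measured 932 and 1005 against 449 and 398 RPKM (direct 1.202 ± 0.12) and was not called either (limma adjusted p = 0.138). Its limma adjusted p depended on the setting. It was 0.0431 under the 5 RPKM filter, 0.00506 without centring, 0.0311 under median-of-ratios scaling and 0.000125 under quantile normalization. At pseudocounts of 0.25 and 4 it was 0.172 and 0.0698, without a filter 0.208, and with GSK343-treated pre-plasmablasts as the link 0.228.

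Translocation and vesicle transport had 49 tested members, with 1 called 2-fold or more higher and 5 lower. Over all genes tested, 7.14% were higher and 9.16% lower, so the lower count is near that share. Tram2, of the translocon, measured 164 and 182 RPKM in plasma cells and 50.0 and 68.1 RPKM in plasmablasts (direct 1.56 ± 0.22), while Ssr2, of the translocon-associated complex, stood at 351 and 398 against 984 and 923 RPKM (direct -1.34 ± 0.11, link 1.73) and Srp19, of the signal recognition particle, at 64.4 and 69.3 against 202 and 168 RPKM (direct -1.44 ± 0.15, link 1.06). Among 34 genes of N-glycosylation, 1 was called 2-fold or more higher and 3 lower, the lower count again near the share of all genes. The fucosyltransferase gene Fut8, which adds the core fucose of antibody glycans, measured 179.9 and 186 RPKM in plasma cells and 28.7 and 36.4 RPKM in plasmablasts (direct 2.47 ± 0.15, bridged 2.25 ± 0.20, limma adjusted p = 4.06e-05). B4galt1, which adds galactose to the same glycans, measured 21.5 and 23.7 RPKM in plasma cells and 91.1 and 109 RPKM in plasmablasts (direct -2.09 ± 0.13, bridged -2.75 ± 0.17). These 2 enzymes of glycan finishing thus lay on opposite sides with no overlap.

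Cell cycle genes had the largest share of lower members of any list used. Of 34 tested members 27 were called 2-fold or more lower and 1, Ccnd3, higher, with a median direct difference of -2.59 log2 against -0.04 over all genes. The list's summed level was 368 RPKM in both plasma cell libraries and 1313 and 1196 in the plasmablast libraries. Ube2c, a ubiquitin carrier of mitotic exit, measured 8.01 and 6.88 RPKM in plasma cells and 146 and 119.2 RPKM in plasmablasts (direct -3.97 ± 0.19, bridged -5.85 ± 0.20, limma adjusted p = 2.10e-06, link 1.88). Top2a, the topoisomerase of dividing cells, measured 4.18 and 3.64 RPKM in plasma cells and 80.0 and 70.2 RPKM in plasmablasts (direct -3.95 ± 0.14, bridged -3.43 ± 0.18). The spindle factor gene Tpx2 stood at 0.908 and 0.904 against 28.1 and 25.5 RPKM and Cdc20, an activator of mitotic proteolysis, at 5.54 and 5.01 against 77.3 and 77.4 RPKM (link 1.74). By the direct difference, plasma cells were thus low in every mitotic gene named, but not in all genes of the G1 to S step. E2f1 measured 15.8 and 14.02 RPKM in plasma cells and 15.4 and 16.5 RPKM in plasmablasts (direct -0.09 ± 0.09). Ccne1, the cyclin E1 gene, measured 13.4 and 15.5 against 15.7 and 14.6 RPKM (direct -0.05 ± 0.12). The libraries overlapped for both genes and neither was called. Their bridged differences were both lower, at -0.86 ± 0.15 and -0.82 ± 0.16 (limma adjusted p = 0.0014 and 0.0026).

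Of 33 DNA replication genes, 25 were called 2-fold or more lower and none higher, with a median direct difference of -1.76. Uhrf1, which carries DNA methylation through replication, measured 1.02 and 1.05 RPKM in plasma cells and 23.5 and 20.2 RPKM in plasmablasts (direct -3.48 ± 0.12, bridged -3.16 ± 0.17, limma adjusted p = 6.54e-06). The helicase gene Mcm5 stood at 6.15 and 5.79 against 53.5 and 45.6 RPKM (link 1.67) and Mcm10 at 0.421 and 0.404 against 9.94 and 9.24 RPKM (direct -2.90 ± 0.06). Tk1, the thymidine kinase, stood apart from the list at 27.8 and 30.4 RPKM in plasma cells and 14.4 and 13.6 RPKM in plasmablasts, a direct difference of 1.01 ± 0.08 that was not called (limma adjusted p = 0.434). Over all settings run, 24 to 27 cell cycle and 21 to 27 DNA replication genes were called 2-fold or more lower.

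Promoters of the cell cycle and DNA replication lists were examined because the members of these lists moved together. The printed windows were taken, in order of direct difference, only from lower genes whose promoter held the marked letters. Their matches were therefore fixed in advance. Each window runs from 250 bases before to 50 after the start of transcription in RefSeq on GRCm38.p6, whereas the expression files name mm9. Capitals mark, on either strand, TTTGAA (the core of the CHR element of late cell cycle genes) and CCAAT (the CCAAT box, bound by NF-Y), and matches may share letters. The Ube2c window lies at chr2:164769679-164769978 on the plus strand and the Top2a window at chr11:99024140-99024439 on the minus strand.
Ube2c: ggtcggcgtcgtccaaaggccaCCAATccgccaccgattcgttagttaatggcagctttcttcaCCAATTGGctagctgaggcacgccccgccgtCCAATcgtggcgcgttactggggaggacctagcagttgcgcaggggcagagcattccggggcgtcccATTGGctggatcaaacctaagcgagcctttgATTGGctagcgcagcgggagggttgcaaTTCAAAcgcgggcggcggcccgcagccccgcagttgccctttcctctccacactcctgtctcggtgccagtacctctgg
Top2a: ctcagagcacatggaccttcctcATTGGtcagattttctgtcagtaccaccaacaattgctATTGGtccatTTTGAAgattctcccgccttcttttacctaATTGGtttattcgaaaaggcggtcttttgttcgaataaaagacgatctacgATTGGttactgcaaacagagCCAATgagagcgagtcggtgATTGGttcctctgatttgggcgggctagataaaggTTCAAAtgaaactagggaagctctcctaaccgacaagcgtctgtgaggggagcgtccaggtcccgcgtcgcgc
Among 22 promoters of 21 of the 27 cell cycle genes called 2-fold or more lower, 59.1% held TTTGAA and 81.8% held CCAAT. The shares were 12.1% and 37.9% in 10369 promoters of genes tested, and 17.9% and 37.4% in all 32851 promoters of the table. Among 25 promoters of 20 of the 25 lower DNA replication genes, 40.0% held GCGGGAA, letters of the E2F site, against 8.6% of promoters of genes tested and 4.6% of all, and 8.0% held TTTGAA. No promoter of the lower cell cycle genes held GCGGGAA. The Uhrf1 window at chr17:56303087-56303386 on the plus strand has the GCGGGAA match in capitals.
Uhrf1: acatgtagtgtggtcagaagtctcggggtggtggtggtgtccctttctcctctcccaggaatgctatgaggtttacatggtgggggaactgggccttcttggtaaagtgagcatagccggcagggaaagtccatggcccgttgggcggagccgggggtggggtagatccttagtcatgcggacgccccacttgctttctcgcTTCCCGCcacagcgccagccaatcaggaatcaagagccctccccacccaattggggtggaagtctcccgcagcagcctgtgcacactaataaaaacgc
A match is a description of letters and was not tested as a binding site.

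Among 20 inhibitors of cyclin-dependent kinases and genes of quiescence, 3 were called 2-fold or more higher and 6 lower, or 1 higher without the first plasma cell library or either DMSO library. The inhibitor gene Cdkn2a stood at 4.64 and 4.20 RPKM in plasma cells and 102 and 103 RPKM in plasmablasts (direct -4.24 ± 0.06, bridged -4.15 ± 0.25) and Cdkn1a, which encodes p21, at 3.72 and 4.81 against 63.0 and 68.5 RPKM (direct -3.66 ± 0.15). Cdkn2b and, by less than 2-fold, Cdkn1c and Cdkn2c were also called lower. Polycomb and chromatin silencing genes lay on both sides, with 3 of 27 called 2-fold or more higher and 5 lower, or 1 higher without the first plasma cell library and 3 lower without the second. Ezh2, the methyltransferase of Polycomb complex 2, measured 6.01 and 5.24 RPKM in plasma cells and 47.7 and 69.4 RPKM in plasmablasts (direct -3.14 ± 0.26, bridged -1.85 ± 0.30, limma adjusted p = 0.001, link -1.29), and its partner Suz12 stood at 17.6 and 17.5 against 48.8 and 55.0 RPKM (direct -1.50 ± 0.07). The Suz12 call was lost without either plasma cell library, either DMSO library, the second plasmablast library or the first control library. It was also lost without centring (limma adjusted p = 0.547) and under median-of-ratios scaling (0.113) or quantile normalization (0.13). The 5 RPKM filter (0.0753) and GSK343-treated pre-plasmablasts as the link (0.0556) lost it too. Cbx7, a reader subunit of Polycomb complex 1, was called higher, at 174 and 171 RPKM in plasma cells and 27.8 and 32.3 RPKM in plasmablasts (direct 2.50 ± 0.09, bridged 2.78 ± 0.13), and Ezh1, the relative of Ezh2 in resting cells, was called higher.

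**Figure D4:**
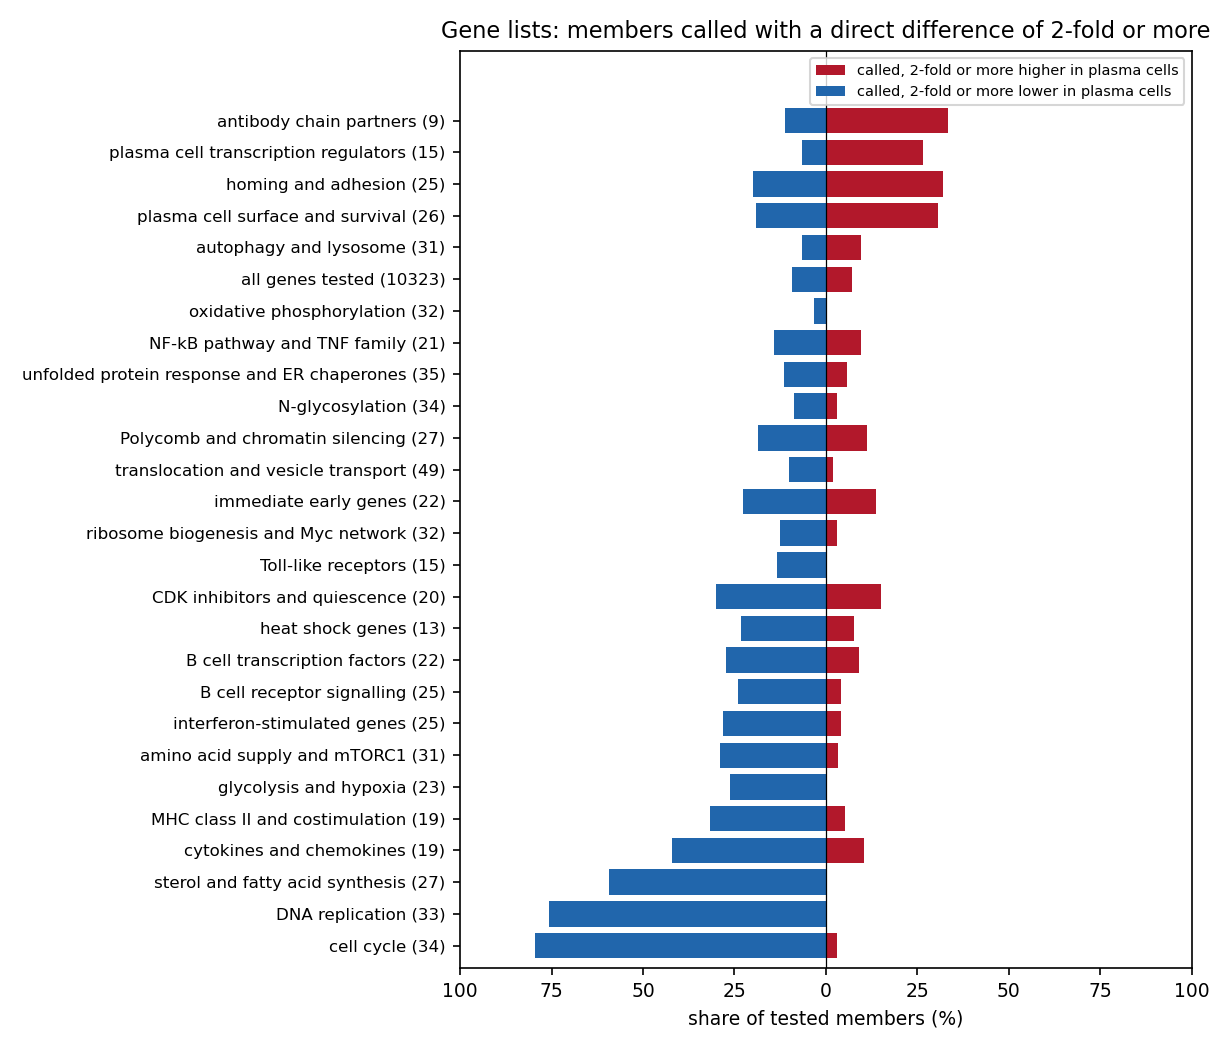
Share of tested members (number in brackets) of each gene list that were called with a direct difference of 2-fold or more, higher in plasma cells in red to the right and lower in blue to the left. Cell cycle, DNA replication and sterol synthesis have the longest bars to the left, with 27 of 34, 25 of 33 and 16 of 27 members, against 9.16% of all genes tested.

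Sterol and fatty acid synthesis was lower as a list. Of 27 tested members 16 were called 2-fold or more lower and none higher, the median direct difference was -1.36, and 13 to 17 were lower over all settings. The desaturase gene Scd1 measured 28.4 and 28.5 RPKM in plasma cells and 202 and 217 RPKM in plasmablasts (direct -2.83 ± 0.03, bridged -2.63 ± 0.13, limma adjusted p = 4.76e-06). The sterol enzymes Cyp51, at 8.10 and 9.58 against 65.0 and 56.2 RPKM, and Sqle, at 9.64 and 8.96 against 56.3 and 58.2 RPKM, were called lower with direct differences of -2.64 ± 0.16 and -2.49 ± 0.05. Of 23 genes of glycolysis and hypoxia 6 were called 2-fold or more lower and none higher, or 1 higher without the first plasmablast library. Vegfa, the endothelial growth factor, stood at 6.85 and 7.10 against 113 and 88.7 RPKM (direct -3.65 ± 0.19), the stress gene Ddit4, an mTORC1 inhibitor, at 21.6 and 27.1 against 139 and 147 RPKM, and the pyruvate kinase gene Pkm2 at 153 and 149 against 626 and 715 RPKM (direct -2.13 ± 0.08). Amino acid supply and mTORC1 had 31 tested members, 1 called 2-fold or more higher and 9 lower. Psat1, of serine synthesis, measured 19.5 and 19.3 against 118 and 121 RPKM (direct -2.56 ± 0.01, link 2.08), and Chac1, which degrades glutathione, 33.5 and 27.7 against 199 and 135 RPKM (direct -2.38 ± 0.32). Slc3a2, the heavy chain of the CD98 amino acid transporter, was higher by its direct difference of 1.19 ± 0.13, at 1383 and 1209 RPKM in plasma cells and 594 and 544 RPKM in plasmablasts, but was not called (limma adjusted p = 0.339, link 1.01).

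In oxidative phosphorylation the direct and bridged differences parted. Of 32 genes of the respiratory chain 26 were called lower, but only Atp5g1, at 13.7 and 14.4 against 26.3 and 42.9 RPKM (direct -1.19 ± 0.33, link 1.62), reached 2-fold, or 3 genes without the first plasmablast library. The median direct difference was -0.41, the median bridged difference -1.88 and the median link difference 1.55. Cox7a2, a subunit of the terminal oxidase, measured 66.7 and 81.7 against 126 and 136 RPKM in plasma cells and plasmablasts, but 604 and 726 against 121 and 126 RPKM in DMSO and control pre-plasmablasts (link 2.85). Of 32 genes of ribosome biogenesis and the Myc network, 1 was called 2-fold or more higher and 4 lower, with a median direct difference of -0.77. The lower count was 2 without the first plasma cell or the second DMSO library, and the higher count was 0 without the second plasmablast library. Myc, the transcription factor of growth and division, measured 15.6 and 16.2 RPKM in plasma cells and 77.7 and 69.4 RPKM in plasmablasts with a direct difference of -2.13 ± 0.10. DMSO pre-plasmablasts stood at 15.3 and 16.2 RPKM, level with plasma cells (link -1.73), and the bridged difference was -0.40 ± 0.14 (limma adjusted p = 0.038), which turned to 0.03 without centring. The call was lost without either plasma cell or DMSO library, the first plasmablast library or the second control library. It was also lost at a pseudocount of 4 (limma adjusted p = 0.0646), under the 5 RPKM filter (0.117) and with all 14 libraries in the fit (0.0645). Median-of-ratios scaling (0.22) and quantile normalization (0.217) lost it too. The Max partner gene Mxd3 stood at 1.00 and 0.816 against 9.78 and 9.20 RPKM (direct -2.45 ± 0.09, link 1.48), the nucleolar gene Nop58 at 21.0 and 22.3 against 68.5 and 70.9 RPKM (direct -1.63 ± 0.04, link -1.002) and Wdr12, of ribosome assembly, at 1.19 and 1.77 against 7.22 and 5.61 RPKM (direct -1.57 ± 0.24), all called lower. The Nop58 call was lost without the first plasma cell library and without the second DMSO library. It was also lost without centring (limma adjusted p = 0.357), under median-of-ratios scaling (0.0692), quantile normalization (0.194) and adjustment for gene length (0.0804).

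**Figure D5:**
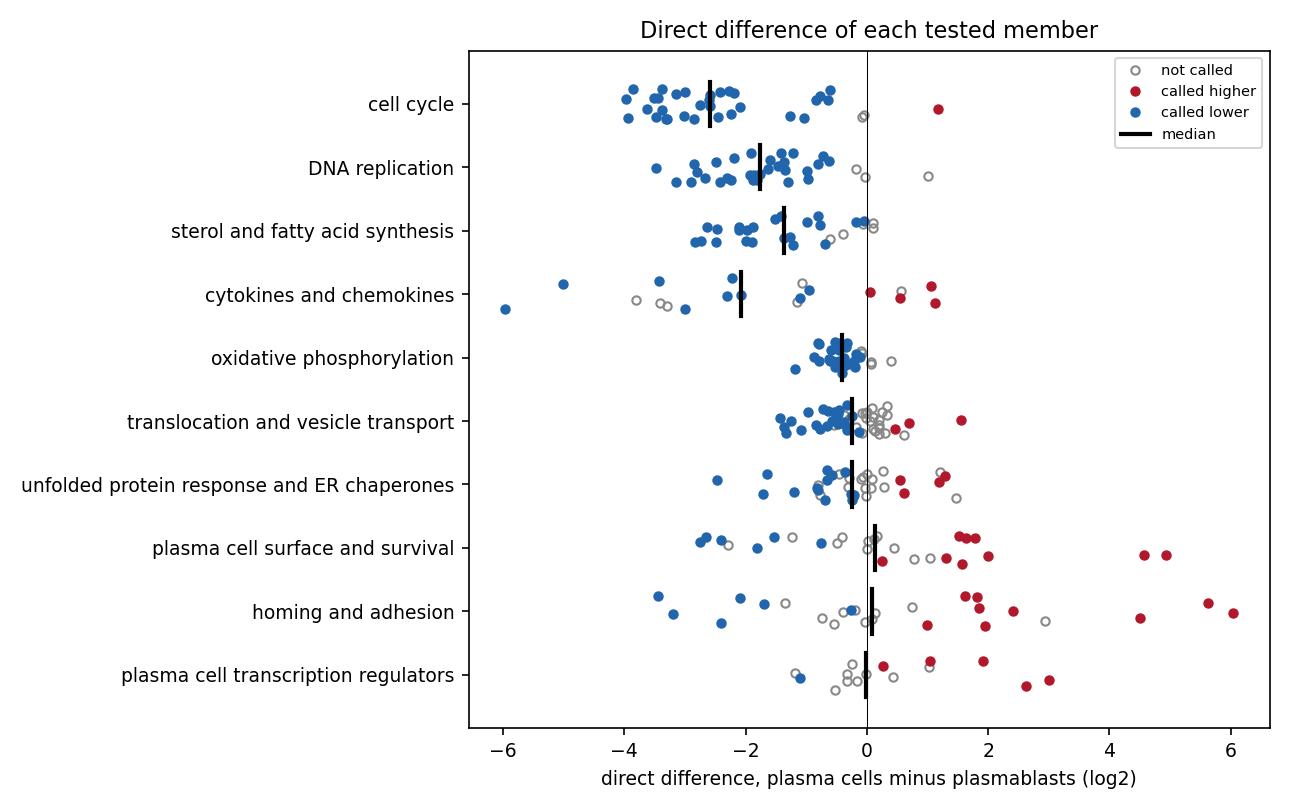
Direct difference (log2, plasma cells minus plasmablasts) of each tested member of 10 gene lists, with called members filled red (higher) or blue (lower), members not called as open grey circles and the list median as a black bar. Cell cycle medians lie at -2.59 and DNA replication at -1.76, while oxidative phosphorylation is called lower in 26 of 32 members with a median of only -0.41.

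Genes of B cell identity were lower in part. Of 22 B cell transcription factors, 2 were called 2-fold or more higher and 6 lower, with a median direct difference of -0.60. The higher count was 1 without the first plasma cell library, either DMSO library or the first plasmablast library. Pax5, the factor that holds B cell identity, measured 0.266 and 0.117 RPKM in plasma cells and 8.25 and 20.5 RPKM in plasmablasts (direct -3.56 ± 0.60, bridged -2.39 ± 0.57, limma adjusted p = 0.0067, link -1.17), a call lost at a pseudocount of 4 (bridged -1.12, limma adjusted p = 0.0669). Spib stood at 0.794 and 0.805 against 15.8 and 33.2 RPKM (direct -3.73 ± 0.50, link -1.04) and Bcl6, of germinal centre cells, at 0.466 and 0.341 against 9.37 and 10.1 RPKM (direct -2.93 ± 0.08). The plasmablast libraries differed by over 2-fold for Pax5 and Spib, and still lay far above the plasma cells. Among 25 genes of B cell receptor signalling, 1 was called 2-fold or more higher and 6 lower. Ms4a1, which encodes CD20, measured 28.8 and 29.0 RPKM in plasma cells and 279 and 343 RPKM in plasmablasts (direct -3.37 ± 0.13), and the coreceptor gene Cd72 0.338 and 0.117 against 5.33 and 16.5 RPKM (direct -3.10 ± 0.73). Cd22, another inhibitory coreceptor, stood at 3.61 and 2.73 against 14.5 and 31.5 RPKM and was not called (direct -2.43 ± 0.54, link -1.84), although it passed without the first plasmablast library (limma adjusted p = 0.0131).

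Of 19 genes of MHC class II and costimulation, 1 was called 2-fold or more higher, or 2 without the second plasmablast library, and 6 lower. H2-DMb2, which loads peptide on class II, measured 0.359 and 0.597 RPKM in plasma cells and 9.24 and 20.5 RPKM in plasmablasts (direct -3.32 ± 0.53), and the activation marker Cd83 7.45 and 4.48 against 22.8 and 42.6 RPKM (direct -2.23 ± 0.53). The invariant chain gene Cd74, named after its values were seen, stayed abundant at 9288 and 7992 RPKM in plasma cells and 7507 and 7059.9 RPKM in plasmablasts (direct 0.25 ± 0.13, called higher by the bridged difference of 0.86 ± 0.20). Icosl, the ligand of the costimulatory receptor ICOS on T cells, was the 1 gene 2-fold or more higher, at 13.1 and 12.6 RPKM in plasma cells and 0.597 and 0.617 RPKM in plasmablasts (direct 3.12 ± 0.03, limma adjusted p = 5.47e-06). H2 genes have close paralogs, so their values are less certain. Batf, an AP-1 family factor of activated lymphocytes, measured 17.5 and 15.4 RPKM in plasma cells and 69.7 and 91.4 RPKM in plasmablasts (direct -2.21 ± 0.20) and was called lower. Among 15 Toll-like receptor genes 2 were called 2-fold or more lower, or 4 without the first plasmablast library, and none higher: Tlr7, the receptor for RNA, at 3.74 and 3.11 against 36.6 and 66.1 RPKM (direct -3.50 ± 0.42, link -1.65), and Ly86, a partner of the LPS-sensing RP105, at 3.18 and 3.07 against 33.0 and 37.0 RPKM (direct -3.11 ± 0.07, link 1.69).

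Interferon-stimulated genes had 25 tested members, 1 called 2-fold or more higher and 7 lower. Oasl1, an antiviral regulator, measured 1.04 and 0.610 RPKM in plasma cells and 53.8 and 47.7 RPKM in plasmablasts (direct -4.82 ± 0.20, bridged -3.98 ± 0.22). Ifi27l2a stood at 98.5 and 93.6 against 1046 and 849 RPKM (direct -3.27 ± 0.17, link 1.62), the ubiquitin-like Isg15 at 9.97 and 14.3 against 106 and 60.6 RPKM (direct -2.64 ± 0.48) and Irf7, a transcription factor of the response, at 25.5 and 24.4 against 161 and 139 RPKM (direct -2.53 ± 0.12, link -1.24). The promoter of Isg15 was picked for print because it held GAAANNGAAA, the core of the interferon response element, so its matches were fixed in advance. It lies at chr4:156200769-156201068 on the minus strand and is printed with matches in capitals, where overlapping matches run together.
Isg15: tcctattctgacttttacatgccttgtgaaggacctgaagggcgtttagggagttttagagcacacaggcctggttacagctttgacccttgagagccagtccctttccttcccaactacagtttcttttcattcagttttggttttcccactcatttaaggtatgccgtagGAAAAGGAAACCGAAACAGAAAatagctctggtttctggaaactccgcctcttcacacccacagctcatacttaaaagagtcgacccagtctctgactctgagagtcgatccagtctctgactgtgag
Of 5 promoters of 4 of these 7 lower genes, 3 held GAAANNGAAA, against 3.0% of promoters of genes tested and 3.4% of all promoters, on either strand.

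Cytokines and chemokines had a median direct difference of -2.08 over 19 tested members, with 2 called 2-fold or more higher, or 1 without the first plasma cell or the first plasmablast library, and 8 lower. Il10, the suppressive cytokine, measured 1.99 and 3.02 RPKM in plasma cells and 128 and 97.0 RPKM in plasmablasts (direct -5.01 ± 0.30, bridged -3.45 ± 0.31, limma adjusted p = 4.76e-05, link -1.56). Ccl3, a chemokine of activated cells, measured 0.143 and 0 against 11.1 and 10.05 RPKM (direct -3.42 ± 0.13, link -1.71). The receptor gene Il21r, for a T cell cytokine, measured 0.369 and 0.316 RPKM in plasma cells and 77.7 and 89.2 RPKM in plasmablasts (direct -5.96 ± 0.09, bridged -6.37 ± 0.15), while control pre-plasmablasts held 218 and 213 RPKM. Of 21 genes of the NF-kB pathway and TNF family, 2 were called 2-fold or more higher and 3 lower, against 7.14% and 9.16% of all genes tested. Nfkb2, of the alternative pathway, measured 104 and 104 RPKM in plasma cells and 40.3 and 40.8 RPKM in plasmablasts (direct 1.35 ± 0.01), while Rel, of the classical pathway, measured 1.07 and 0.889 against 14.7 and 14.1 RPKM (direct -2.95 ± 0.08, link -1.43). The inhibitor gene Nfkbia had a direct difference of 1.07 ± 0.02, at 573 and 579.9 against 276 and 274 RPKM, and was not called.

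Immediate early genes, which respond within minutes to signals, lay on both sides, with 3 of 22 called 2-fold or more higher and 5 lower. Fos measured 308 and 328 RPKM in plasma cells and 24.3 and 12.4 RPKM in plasmablasts (direct 4.12 ± 0.48, bridged 5.25 ± 0.65, limma adjusted p = 2.30e-04, link -1.13) and Fosb 40.2 and 42.1 against 1.60 and 0.697 RPKM (direct 4.33 ± 0.33). Jun, the partner of Fos in AP-1, measured 151 and 153 RPKM in plasma cells and 148 and 147 RPKM in plasmablasts, a direct difference of only 0.05 ± 0.02. Its bridged difference of 1.22 ± 0.13, by which it was called, came with a link difference of -1.18. Egr2, at 1.72 and 1.10 against 35.6 and 29.4 RPKM (direct -3.80 ± 0.24, link -1.28), and the phosphatase gene Dusp2, at 3.43 and 5.32 against 74.6 and 54.8 RPKM (direct -3.61 ± 0.35), were called lower. Of 13 heat shock genes, 1 was called 2-fold or more higher, or 2 without the first plasma cell library, and 3 lower, Bag3 standing at 15.3 and 14.8 against 7.57 and 5.67 RPKM (link -1.45) and the mitochondrial chaperonin gene Hspd1 at 7.22 and 8.90 against 22.9 and 26.8 RPKM. Autophagy and lysosome genes had 3 of 31 called 2-fold or more higher and 2 lower, near the 7.14% and 9.16% of all genes tested. Wipi1, of early autophagosomes, measured 105 and 99.5 RPKM in plasma cells and 16.0 and 16.5 RPKM in plasmablasts (direct 2.59 ± 0.04) and Psap, the precursor of lysosomal saposins, 562 and 538 against 173 and 187 RPKM (direct 1.62 ± 0.05), while the membrane protein gene Lamp2 stood at 38.5 and 36.3 against 141 and 181 RPKM (direct -2.06 ± 0.17).

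Several of the lowest genes belonged to none of these groups. Ier5l, named for its likeness to an immediate early gene, measured 1.06 and 1.14 RPKM in plasma cells and 336 and 279 RPKM in plasmablasts (direct -7.19 ± 0.15), but also only 13.7 and 10.8 RPKM in DMSO pre-plasmablasts against 362 and 349 in controls (link -4.33, bridged -2.86 ± 0.20). Cd36, a scavenger receptor, measured 0.562 and 0.195 RPKM in plasma cells and 66.4 and 66.6 RPKM in plasmablasts (direct -5.62 ± 0.20, bridged -6.47 ± 0.18). Dtx1, a Notch pathway gene, stood at 4.24 and 3.94 against 256 and 239.8 RPKM (direct -5.60 ± 0.08, link -2.46), and Dusp4, a MAP kinase phosphatase, at 2.34 and 1.92 against 124 and 107 RPKM (direct -5.21 ± 0.16). Uchl1, a ubiquitin hydrolase, stood at 0.197 and 0.818 against 40.2 and 35.4 RPKM (link 1.61), and the inhibitory receptor gene Pdcd1, which encodes PD-1, at 0.706 and 0.642 against 44.7 and 40.4 RPKM (direct -4.69 ± 0.09). The protease inhibitor gene Serpine2 stood at 0.689 and 0.172 against 29.9 and 26.3 RPKM (link -2.33) and the arginine transporter gene Slc7a3 at 2.53 and 2.75 against 64.8 and 82.6 RPKM (link 1.16). All 8 genes were called lower, and in none did a plasma cell library reach 5 RPKM. A pair of myeloid receptor genes shared by other lineages were higher instead, Fcer1g, a signalling chain, at 30.9 and 33.4 against 3.72 and 4.86 RPKM (direct 2.66 ± 0.15, link -1.34), and Itgam, which encodes CD11b, at 6.39 and 6.21 against 0.282 and 0.497 RPKM (direct 2.41 ± 0.10). The markers given above with the granulocyte list apply to both.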

How the data were processed

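Polyadenylated RNA was sequenced strand-specifically on an Illumina instrument with 50-nt reads, per the labels' protocols. The submitters' processing notes name the build mm9 and the tools DESeq 1.8.3, HTSeq 0.5.3, SICER and TopHat 1.4.1. Whether counting used strand, and how GC content was normalized, is not given in the sources used here. The authors deposited RPKM values, plain for plasma cells and DMSO pre-plasmablasts and GC-normalized for plasmablasts and control pre-plasmablasts. No counts were used, so the depth of the GC-normalized libraries is unknown. In the plain files, steps of the low values give the second library 0.961 times the depth of the first for plasma cells and 0.848 times for DMSO pre-plasmablasts.

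In the plasma cell files, 359 gene names had been damaged, as by a spreadsheet, and 355 were restored, while 5 summary rows and 18 colliding names were left out. Spearman's rho with the first DMSO library was 0.397 and 0.398 for plasma cells as deposited, and 0.908 and 0.907 once the summary rows were dropped. Of 11382 genes shared by the libraries, 10323 with at least 1 RPKM in 2 libraries were tested. GC-normalized files list 11567 entries and plain files 21025, so genes absent from the former could not be called. At 1 RPKM or more, 9633 of 9885 genes in the first plasma cell library were shared, and 9627 of 9869 in the second. For plasmablasts these were 9700 of 9744 and 9837 of 9881, so this limit removed more genes of plasma cells. Values were log2(RPKM + 1), centred on each library's median, which understates the change of low genes, and were fitted with limma 3.58.1 (R 4.3.3, two-sided, Benjamini-Hochberg adjustment) over 8 libraries. On simulated data with 100 genes changed by 1 log2 and 100 by 2, the bridged test recovered 55% and 95%, with 3 false calls. All groups shared the same mean for each unchanged gene there, so the simulation held no link difference. It scored adjusted p and sign without the no-overlap condition. Its false calls therefore do not measure errors that come from the link or the file type.

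The gene lists are named in the report where they are described. Named genes were 17 fixed ones where tested, the 12 called genes with the largest difference in each direction, and, per list, up to 4 called and 2 uncalled members with the largest difference, taken where their role is known. Bcl2, Slamf7, Il6ra, Slpi, Cd74 and members named without values were chosen after their values were seen. Members and lists were chosen with earlier results of these data known. Alternatives covered the pseudocount, filter, scaling, samples, link and each left-out library. Unrestored names and an adjustment for gene length were added after seeing the data. The titles give a library number in brackets but no replicate number. Libraries were put in series by the first digits of that number, a grouping made here, and the series served as the replicate block. The plasma cell libraries fall in no such series, so the block did not act on them. Libraries of the same series were closer, with r of 0.985 and 0.989 between plasmablasts and control pre-plasmablasts against 0.975 across series. Results that need a withheld item are not reported here. Paralogs and overlapping genes, such as H2 genes, Hbb-b1 and Ifi27l2a, are uncertain.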

Additional observations from a re-analysis of the deposited data

Results flagged for a closer look

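Markers of other blood cells that the plasmablast files do not list were present in plasma cells at 5 RPKM or more on average, above both DMSO pre-plasmablast libraries, in data outside the main comparison. The means over the 2 plasma cell libraries were 30.5 RPKM for S100a9, 24.1 for Ngp, 10.1 for S100a8, 9.34 for Camp, 8.10 for Lyz2 and 7.20 for Ltf, all genes of granulocytes or macrophages. Cd4, of helper T cells and some dendritic cells, had a mean of 10.8 RPKM, and Gzma, of cytotoxic cells, had 7.52 RPKM. The granulocyte genes were higher in the first plasma cell library, whereas Gzma was at 7.01 and 8.04 RPKM. The source of this RNA was not tested.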

How the results depend on the processing

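Under 21 alternatives the count of called genes ran from 4032 (at least 5 RPKM in 2 libraries) to 5823 (direct test without the link), against 4785. No gene was called in the opposite direction. A call must match the side on which the same plasma cell and plasmablast libraries separate, so an opposite call could hardly arise under any setting. Leaving out each library in turn gave 1861 to 2176 genes called higher and 2504 to 3003 lower, 691 to 752 higher and 901 to 1021 lower at 2-fold, and, for the direct difference alone, 898 to 951 higher and 1157 to 1261 lower. In the same way, 7075 to 8207 genes passed for plasma cells against DMSO pre-plasmablasts, against 8000. A pseudocount of 4 cut the 2-fold calls to 461 higher and 614 lower and the direct counts to 531 and 726, since it shrinks the differences of low genes. With the library series as replicate block, which did not act on the plasma cell libraries, 5338 genes were called, 779 higher and 1003 lower at 2-fold. No call of a named gene was lost under that block. Igj (limma adjusted p = 3.16e-05), Cd93 (0.0118), Edem2 (0.0272) and Cd22 (0.0402) were called in addition. The share of higher calls was 57.1% without centring, 50.9% under quantile normalization and 50.7% after adjustment for gene length. Some bridged differences changed sign, and the cause was not tested. Xbp1 turned to 0.029 (pseudocount 4), 0.077 (5 RPKM filter), 0.37 (no centring), 0.12 (median-of-ratios scaling), 1.13 (quantile), 1.02 (direct test), 0.21 (GSK343 pre-plasmablasts as link) and 0.53 (gene length), and ranged from -0.215 to 0.101 with 1 library left out, above 0 without the first plasma cell, DMSO or control library or the second plasmablast library (0.022, 0.005, 0.101 and 0.036). Herpud1 turned to 0.029 (no centring), 1.12 (quantile), 1.46 (direct test), 0.057 (GSK343 link) and 0.078 (gene length). Myc turned to 0.027 (no centring) and 0.21 (gene length), Cxcr4 to 0.38 (quantile) and 0.046 (gene length) and Pou2af1 to 0.61 (quantile). The direct test gave -0.52 for Prdm1, -0.24 for Irf4 and -0.16 for Ell2. With 1 library left out Irf4 ranged from -0.034 (without the second plasmablast library) to 0.227, and was -0.003 without the first control library. With GSK343 pre-plasmablasts as link, Cd93 was -0.17 and Tk1 -0.13. Depth limits genes near 1 RPKM, where the deposited values give no counting error.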
